A study of Mus musculus with 2 samples.

Results

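Lysosomal genes were followed in CD8+ T-cell preparations from Bcl11b-deficient mice and in wild-type preparations from infected mice. The genes are 37 that encode lysosomal proteases, other hydrolases, lipid carriers, membrane proteins and subunits of the proton pump that acidifies the lysosome. They were chosen by name, with earlier results of these data known, and all 37 had probes on the array. A gene was measured where 1 of its probes stood well above background in the same colour on each array, and its brightest such probe stood for it. In this way 35 of the 37 were measured, among 9928 genes in all, and alpha-galactosidase A (Gla) and the pump subunit Atp6v1b2 were too dim in both channels on both arrays.

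The deficient cells came from Bcl11bF/F/dLck-iCre mice and the reference cells from wild type mice. Both were infected with Listeria monocytogenes-OVA, a bacterium that carries ovalbumin, and cells were taken on day 6. Per the labels, unwanted cells were removed by negative selection, which left CD8+ T cells of over 90% purity. The iCre recombinase is driven by the distal Lck promoter, which directs it to T-lineage cells. The data are 2 arrays, 1 per biological replicate, each with deficient RNA in red (Cy5) and wild-type RNA in green (Cy3). Both arrays ran in the same dye orientation, and dye and genotype therefore cannot be told apart. The labels give no ages, and do not say how many mice stand behind a replicate.

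Lysosomes break down proteins, lipids and sugars in an acid lumen. Their enzymes are made as precursors, sorted to the organelle and activated there, while heavily glycosylated membrane proteins shield its inner face and a vacuolar ATPase pumps protons in. Phagocytes such as macrophages hold many lysosomes, and in cytotoxic T cells related organelles store the granzymes.

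Intensities below are normalized channel intensities, in scanner units after background correction and loess, and compare the same probe between samples only. The arrays were not scaled to each other, so whether the groups of a gene overlap also depends on the level of each array. The log2 ratio is deficient over wild type, given as the mean of both arrays with the SD (n = 2). P-values are limma's, adjusted over the 9928 genes by the Benjamini-Hochberg method. The fit gave every gene the same standard error of 0.42, so a gene was called where its mean log2 ratio lay beyond 1.18 in either direction.

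Of gene spots, 26.0% and 31.1% were well above background for deficient RNA, and 32.4% and 28.9% for wild-type RNA. Negative control spots were brighter in the deficient channel (968 and 707) than in the wild-type channel (326 and 406), so a dim spot carries much background. The deleted gene was lower in the deficient channel. The brighter Bcl11b probe read 1470 and 714 in deficient cells, against 2360 and 5530 in wild-type cells. The log2 ratio was -0.69 for replicate 1 and -2.95 for replicate 2. The labels do not state which part of Bcl11b is removed, so these probes may lie outside it.

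Part of the lysosomal genes were higher in Bcl11b-deficient preparations and limma called 0 lower. Of the 35 measured, 13 rose (37.1%) and 22 did not pass, where 3.67% of all genes tested rose and 5.97% fell (9.64% in either direction). At an unadjusted p under 0.05, 16 were higher and 0 lower, where 753 of all 9928 genes were higher and 1421 lower. The median log2 ratio of the 35 genes was 0.69, with 0.50 on replicate 1 and 1.26 on replicate 2. For all genes tested it was -0.12, with -0.22 on replicate 1 and -0.01 on replicate 2. By role, cysteine proteases led, with cathepsin B at 9.45-fold by its brighter probe (log2 ratio 3.24, beside 0.37 at its dimmer probe). Of the other proteases, 1 of 3 rose. None of the 5 measured proton pump genes passed, where the share called over all genes amounts to few calls or none. On both arrays 23 of the 35 genes were above 0 and 3 below it, beside 32.5% and 41.5% of all genes. On both arrays 10 of the 35 genes were more than 2-fold higher, as were 2.59% of all genes. Gm2a lay just inside the limit of the call with 1.25, and Hexa just outside it with 1.15. The count of risen genes depended on the processing. It was 2 with the ratios of the scanner's own program, 3 with median centring in place of loess, 2 with the channels fitted separately and 0 without the filter on dim probes.

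**Figure D1:**
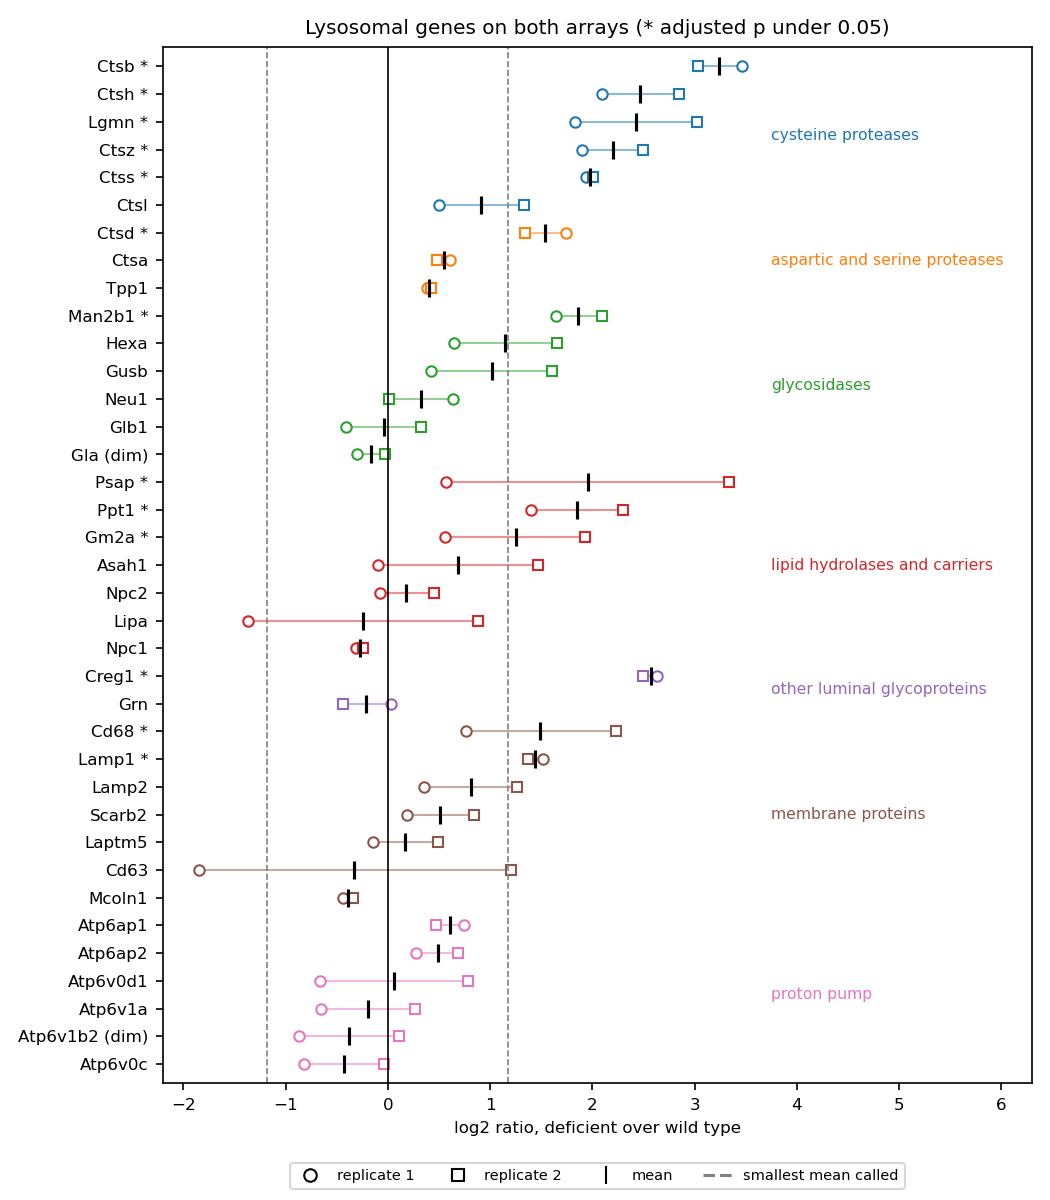
Log2 ratio of each of the 37 lysosomal genes, deficient over wild type, on replicate 1 (circles) and replicate 2 (squares), with the mean as a black bar and genes ordered by role. Dashed lines mark 1.18, the smallest mean called, and stars the 13 genes called higher, of which 5 are cysteine proteases.

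Markers of macrophages were higher in the same preparations. Of 20 macrophage markers, 15 were measured, with a median log2 ratio of 2.38, and 14 of them rose. The summed intensity of the 15 measured was 116280 and 181810 in deficient cells, against 21165 and 21071 in wild-type cells. This sum, like that of the T-cell markers below, weighs bright probes most and does not measure the amount of a cell type. The complement chain C1qc stood at 3.49 ± 0.26, Adgre1, which encodes F4/80, at 3.35 ± 0.04, the adhesion molecule Vcam1 at 3.32 ± 0.07 and Csf1r, a growth factor receptor of macrophages, at 3.25 ± 0.46 (SD, n = 2 each). Mertk, Vsig4, Siglec1, Timd4 and Mrc1 were too dim to be measured. Of 10 B-cell markers 5 were measured (median 1.59) and 3 rose. Of 9 neutrophil markers 6 were measured (median 1.41) and 3 rose, and of 7 dendritic cell markers 3 were measured (median 1.72) and 2 rose. Too dim were Cd79a, Pax5, Cr2, Fcer2a and Ebf1 of B cells, Elane and Csf3r of neutrophils, and Flt3, Zbtb46, Clec9a and Siglech of dendritic cells. The neutrophil marker Ly6g was not on the array. Of 13 T-cell markers 6 fell (median -1.17), and 0 were higher by limma, with 0 also at an unadjusted p under 0.05. Their summed intensity was 97041 and 107797 in deficient cells, against 167079 and 304839 in wild-type cells. Which cells carried the lysosomal RNA was not measured, and the part of other cell types in its rise was not tested. In such bulk samples fewer cells of a type and less RNA per cell cannot be told apart.

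Cysteine proteases had the highest share of risen genes among the 7 roles. These papain-like cathepsins and the asparagine-specific protease legumain degrade proteins in the lysosome and process antigens. Of the 6 genes, 5 rose, and the median log2 ratio was 2.31, with 1.92 on replicate 1 and 2.67 on replicate 2.

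Cathepsin B (Ctsb; NM_007798, chromosome 14, 62097179 to 62097238, build NCBI36) read 42200 and 43800 in deficient cells, against 3850 and 5380 in wild-type cells. Both deficient samples lay far above both wild-type samples, at a log2 ratio of 3.24 ± 0.30 (SD, n = 2; limma adjusted p = 9.46e-12), higher than 99.9% of the genes tested. Its dimmer probe gave 0.37 ± 0.27, and the mean of both probes, 1.81, passed as well. Cathepsin H (Ctsh; NM_007801, chromosome 9, 89873883 to 89873942), an aminopeptidase, read 23000 and 37200 in deficient cells, against 5410 and 5160 in wild-type cells. Its log2 ratio was 2.47 ± 0.54 (adjusted p = 6.08e-07), and the groups did not overlap. Legumain (Lgmn; NM_011175, chromosome 12, 102795415 to 102795474) read 2380 and 5980 in deficient cells, against 669 and 737 in wild-type cells. It had a log2 ratio of 2.43 ± 0.84 (adjusted p = 1.02e-06), and was higher on replicate 2 than on replicate 1.

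Cathepsin Z (Ctsz; NM_022325, chromosome 2, 174070666 to 174070725), a carboxypeptidase, read 4110 and 9440 in deficient cells, against 1100 and 1670 in wild-type cells. It stood at 2.20 ± 0.42 (adjusted p = 1.57e-05). Cathepsin S (Ctss; NM_021281, chromosome 3, 95641644 to 95641703), which trims the invariant chain of class II molecules, read 26100 and 37300 in deficient cells, against 6800 and 9230 in wild-type cells. Its ratio was nearly equal on both arrays, 1.94 on replicate 1 and 2.01 on replicate 2 (adjusted p = 1.62e-04). For both genes the lowest deficient sample exceeded the highest wild-type sample. Cathepsin L (Ctsl), an endopeptidase of the same family, did not pass. It read 1280 and 3340 in deficient cells, against 908 and 1330 in wild-type cells, so that the groups overlapped, with a log2 ratio of 0.91 ± 0.59 (adjusted p = 0.162).

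Of the 3 aspartic and serine proteases, cathepsin D rose. Cathepsin D (Ctsd; NM_009983, chromosome 7, 142185447 to 142185506), the main aspartic protease of lysosomes, read 9530 and 11800 in deficient cells, against 2850 and 4690 in wild-type cells. The groups did not overlap, and the log2 ratio was 1.54 ± 0.29 (SD, n = 2; limma adjusted p = 0.00568). It lost the call in 6 of 12 alternatives, with 0.63 at the lowest under median centring. Cathepsin A (Ctsa), a serine carboxypeptidase that also protects neuraminidase and beta-galactosidase, stood at 0.55 ± 0.09, and tripeptidyl peptidase 1 (Tpp1) at 0.40 ± 0.03. Both genes were above 0 on both arrays, did not pass (adjusted p = 0.465 and 0.602), and were -0.32 and -0.41 under median centring.

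**Figure D2:**
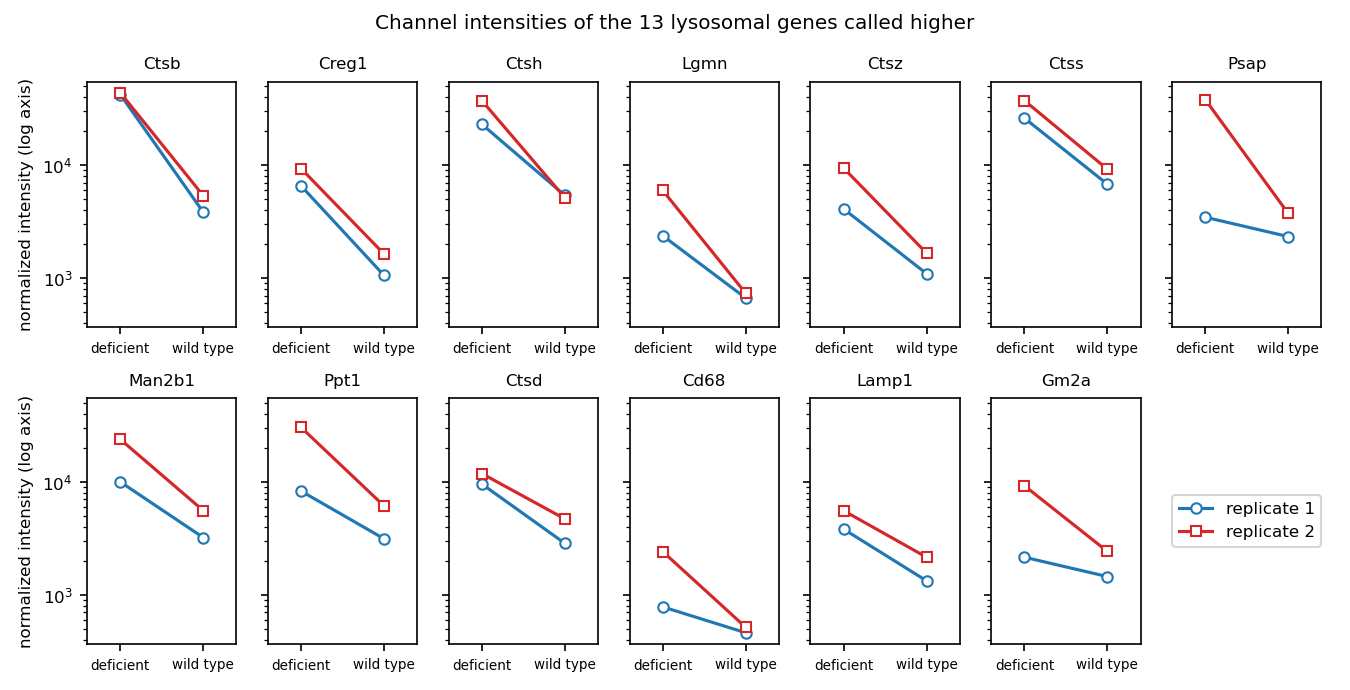
Normalized channel intensity, on a log axis, of the 13 lysosomal genes called higher, in deficient cells (left) and wild-type cells (right) of each panel, with a line for each array. Every line falls toward wild type, and for Psap the deficient sample of replicate 2 (38100) is far above that of replicate 1 (3470).

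Among the glycosidases, which cleave sugars from glycoproteins and glycolipids, 1 of 5 measured rose. The alpha-mannosidase Man2b1 (NM_010764, chromosome 8, 87987554 to 87987613) read 9970 and 23700 in deficient cells, against 3210 and 5560 in wild-type cells. Its log2 ratio was 1.86 ± 0.32 (SD, n = 2; limma adjusted p = 4.47e-04), with no overlap of the groups. Hexa, the alpha chain of beta-hexosaminidase, read 1660 and 4550 in deficient cells, against 1060 and 1450 in wild-type cells. The groups did not overlap, but the ratio of 1.15 ± 0.70 did not pass (adjusted p = 0.0577), although it passed in 3 of 12 alternatives. Beta-glucuronidase (Gusb) had a probe printed in 10 spots, and its mean over them was 1250 and 4570 in deficient cells, against 934 and 1490 in wild-type cells. The groups overlapped, and the ratio was 0.42 on replicate 1 and 1.61 on replicate 2 (adjusted p = 0.109). The neuraminidase Neu1 (0.32 ± 0.45) and the beta-galactosidase Glb1 (-0.04 ± 0.52) lay near 0. Gla, which removes galactose from globotriaosylceramide, gave 178 and 228 in deficient cells, against 219 and 233 in wild-type cells, levels not well above background.

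Of 7 genes of lysosomal lipid breakdown and transport, 3 rose, with a median log2 ratio of 0.69 that was -0.08 on replicate 1 and 1.47 on replicate 2. The palmitoyl-protein thioesterase Ppt1 (NM_008917, chromosome 4, 122361174 to 122361233), which removes fatty acids from proteins, read 8260 and 30200 in deficient cells, against 3130 and 6110 in wild-type cells. It had a log2 ratio of 1.85 ± 0.64 (SD, n = 2; limma adjusted p = 5.02e-04), and its groups did not overlap. Prosaposin (Psap; NM_011179, chromosome 10, 59697434 to 59697493), the precursor of the saposins that present sphingolipids to hydrolases, read 3470 and 38100 in deficient cells, against 2340 and 3750 in wild-type cells.

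The deficient sample of replicate 1 therefore lay between the wild-type samples, and the call for Psap (1.96 ± 1.96, adjusted p = 1.94e-04) rested on replicate 2, where the log2 ratio was 3.34, against 0.57 on replicate 1. The GM2 activator (Gm2a; NM_010299, chromosome 11, 54953777 to 54953836), which lifts the ganglioside GM2 to hexosaminidase, read 2150 and 9210 in deficient cells, against 1450 and 2420 in wild-type cells. Its groups overlapped as well, and the ratio was 1.25 ± 0.97 (adjusted p = 0.0356), with 0.56 on replicate 1 and 1.93 on replicate 2.

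The other 4 lipid genes did not pass. Acid ceramidase (Asah1) gave -0.10 on replicate 1 and 1.47 on replicate 2. Lysosomal acid lipase (Lipa), which hydrolyses cholesteryl esters and triglycerides, read 342 and 2040 in deficient cells, against 883 and 1110 in wild-type cells. It had opposite signs, -1.37 on replicate 1, where the deficient spot did not stand out from background, and 0.88 on replicate 2. The cholesterol carriers Npc1 (-0.27 ± 0.06) and Npc2 (0.18 ± 0.37), which hand cholesterol from the lumen to the membrane, lay near 0. In deficient cells Npc1 stood out from background on 1 array only.

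The 2 remaining luminal glycoproteins differed. Creg1 (NM_011804, chromosome 1, 167607470 to 167610556), a secreted and lysosomal glycoprotein, read 6560 and 9330 in deficient cells, against 1060 and 1640 in wild-type cells. It rose with 2.57 ± 0.09 (SD, n = 2; limma adjusted p = 1.78e-07), nearly alike on both arrays. Progranulin (Grn; NM_008175), the precursor of the granulins, read 20200 and 22500 in deficient cells, against 19900 and 30400 in wild-type cells at its brighter probe (chromosome 11, 102249367 to 102249426). The groups overlapped there, with -0.21 ± 0.33 (adjusted p = 0.800). Its dimmer probe (102252468 to 102252527) read 1960 and 6220 in deficient cells, against 758 and 1100 in wild-type cells, a log2 ratio of 1.93 ± 0.80. The 2 Grn probes thus disagreed in sign, and their mean of 0.86 did not pass either.

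Membrane proteins of the lysosome rose in part, with 2 of 7 called and a median log2 ratio of 0.51. Lamp1 (NM_010684, chromosome 8, 13175113 to 13175172), a major glycoprotein of the limiting membrane that also reaches the surface of degranulating T cells, read 3810 and 5550 in deficient cells, against 1330 and 2150 in wild-type cells. It had 1.44 ± 0.11 (SD, n = 2; limma adjusted p = 0.0112), and its groups did not overlap. Cd68 (NM_009853, chromosome 11, 69481007 to 69481066), a related glycoprotein abundant in macrophages, read 782 and 2410 in deficient cells, against 462 and 516 in wild-type cells. Its ratio of 1.49 ± 1.04 passed (adjusted p = 0.00805), with 0.76 on replicate 1 and 2.23 on replicate 2.

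The close relative of Lamp1, Lamp2, read 762 and 1600 in deficient cells, against 596 and 666 in wild-type cells. These groups did not overlap, but the ratio of 0.81 ± 0.64 did not pass (adjusted p = 0.237). Scarb2, the receptor that carries glucocerebrosidase to the lysosome, stood at 0.51 ± 0.46, and Laptm5, a lysosomal protein of blood cells, at 0.17 ± 0.46. The cation channel Mcoln1 was below 0 on both arrays (-0.39 ± 0.08, adjusted p = 0.614). The tetraspanin Cd63 read 162 and 1510 in deficient cells, against 586 and 659 in wild-type cells. The deficient samples thus lay on either side of the wild-type samples, at -1.85 on replicate 1, where the deficient spot did not stand out from background, and 1.20 on replicate 2.

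No measured gene of the proton pump passed. The pump has a catalytic sector in the cytosol, whose subunits are named V1, and a membrane sector named V0. Of 5 genes limma called 0 in either direction (0 also at an unadjusted p under 0.05), where 9.64% of all genes tested were called. In a list of 5 genes that share amounts to few calls or none. The median log2 ratio was 0.06, with -0.65 on replicate 1 and 0.47 on replicate 2. The accessory subunits Atp6ap1 (0.61 ± 0.19) and Atp6ap2 (0.49 ± 0.29) were above 0 on both arrays. The catalytic subunit Atp6v1a (-0.19 ± 0.65) and the membrane subunit Atp6v0d1 (0.06 ± 1.02) had opposite signs on the arrays. The proteolipid subunit Atp6v0c stood at -0.43 ± 0.56. In deficient cells Atp6v1a and Atp6v0c stood out from background on 1 array only. Atp6v1b2 read 168 and 370 in deficient cells, against 308 and 342 in wild-type cells, with no channel well above background.

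The arrays differed over these genes, as they did over all genes tested. Signs were opposite on the arrays for 25.7% of the 35 genes, near the 26% of all genes. The log2 ratio was higher on replicate 2 than on replicate 1 for 27 of 35 genes (77.1%), as it was for 61.8% of all genes. It was lower on replicate 2 by more than 1 for 0 of the 35 genes, against 271 of the 9928 tested. That share amounts to few or none of 35 genes. For 9 of the 35 (25.7%, against 18.0% of all genes) it was higher by more than 1. These 9 were Cd63, Psap, Lipa, Asah1, Cd68, Atp6v0d1, Gm2a, Gusb and Lgmn, with differences from 3.05 for Cd63 to 1.19 for Lgmn. On replicate 1, 10 of 35 genes were above 2-fold, and on replicate 2 it was 19, where 7.6% and 6.4% of all genes were. Macrophage markers had medians of 2.37 on replicate 1 and 2.99 on replicate 2, and all genes tested -0.22 and -0.01. Whether the makeup of the preparations differed between replicates was not tested.

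Of the 37 genes, 15 had a pair of probes that passed the filter, and 3 of these pairs had opposite signs, at Grn, Laptm5 and Neu1. The widest gap was at Ctsb. Its dimmer probe (chromosome 14, 62099404 to 62099463) read 526 and 745 in deficient cells, against 462 and 504 in wild-type cells, a log2 ratio of 0.37 ± 0.27 beside 3.24 at the brighter probe. Both Psap probes repeated the difference between the arrays, and the dimmer one (59697101 to 59697160) gave -0.42 on replicate 1 and 3.60 on replicate 2. Both Creg1 probes (2.57 and 2.33) and both Ctsz probes (2.20 and 1.69) lay above 1. The dimmer Ctsd probe gave -0.08 on replicate 1 and 1.25 on replicate 2.

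**Figure D3:**
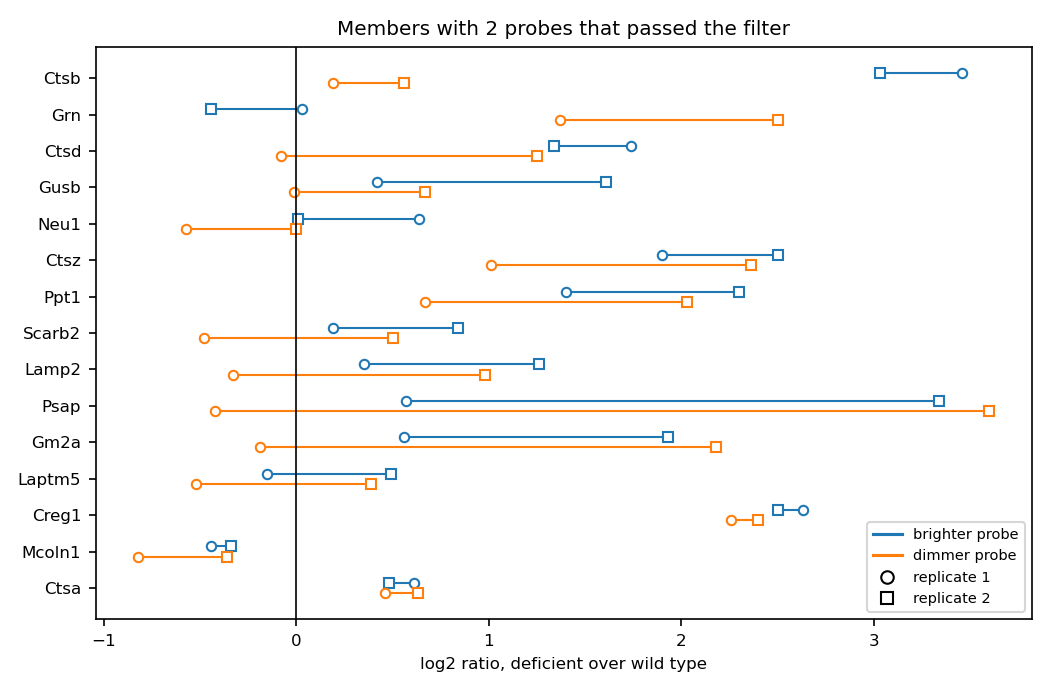
Log2 ratio, deficient over wild type, on replicate 1 (circles) and replicate 2 (squares) of both probes of the 15 lysosomal genes with a pair that passed the filter, ordered by the gap between them. Ctsb (3.24 and 0.37) and Grn (-0.21 and 1.93) have the widest gaps, and Ctsa (0.55 for both probes) the smallest.

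Other genes of the lysosome, its regulation and its protease inhibitors were listed by function. Of 85 measured, 13 rose (15.3%) and 2 fell, with a median log2 ratio of 0.20. Their difference from the 35 genes above was not tested. Among 9 other proteases, the carboxypeptidases Prcp (1.78 ± 0.46, limma adjusted p = 9.63e-04) and Scpep1 (1.60 ± 0.39) rose. The aspartic protease Ctse, which stood out from background in deficient cells on 1 array only, fell, with a log2 ratio of -1.41 ± 0.73 (adjusted p = 0.0133).

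Of 23 other hydrolases and related enzymes, 6 rose (median 0.27). The phospholipase-like Plbd1 had a mean of 3.1 over both arrays (adjusted p = 9.24e-11), the thiol reductase Ifi30, which unfolds antigens for processing, 1.88 ± 0.33, and the fucosidase Fuca1 1.42 ± 0.57 (SD, n = 2 each). Of 17 other membrane proteins 2 rose, the metal transporter Slc11a1, known from phagosomes of macrophages (1.71 ± 1.36), and Litaf (1.25 ± 0.63).

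In lists as small as the next ones, the 9.64% of all genes tested that were called amounts to few calls or none. Limma called 0 of 11 other pump subunits (2 higher and 0 lower at an unadjusted p under 0.05) and 0 of 11 sorting genes, which include both mannose 6-phosphate receptors (0 at an unadjusted p under 0.05). It also called 0 of 8 measured regulators of lysosomal genes, such as Lamtor and Rag subunits (0 at an unadjusted p under 0.05). The other 6 of the 14 listed were too dim to be measured, among them the transcription factors Tfeb, Tfe3, Mitf and Tfec, which were singled out after seeing the data. Among 6 protease inhibitors, Slpi rose with 3.51 ± 0.39, cystatin C (Cst3), a secreted inhibitor of cysteine cathepsins, with 2.66 ± 0.25, and Serpinb6b with 1.86 ± 0.25. Cst7, an inhibitor found in cytotoxic granules, fell, with -1.55 ± 0.15 (adjusted p = 0.00526), and in deficient cells it stood out from background on 1 array only. The 15 macrophage markers measured in the same preparations have a median of 2.38, and their part was not tested.

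**Figure D4:**
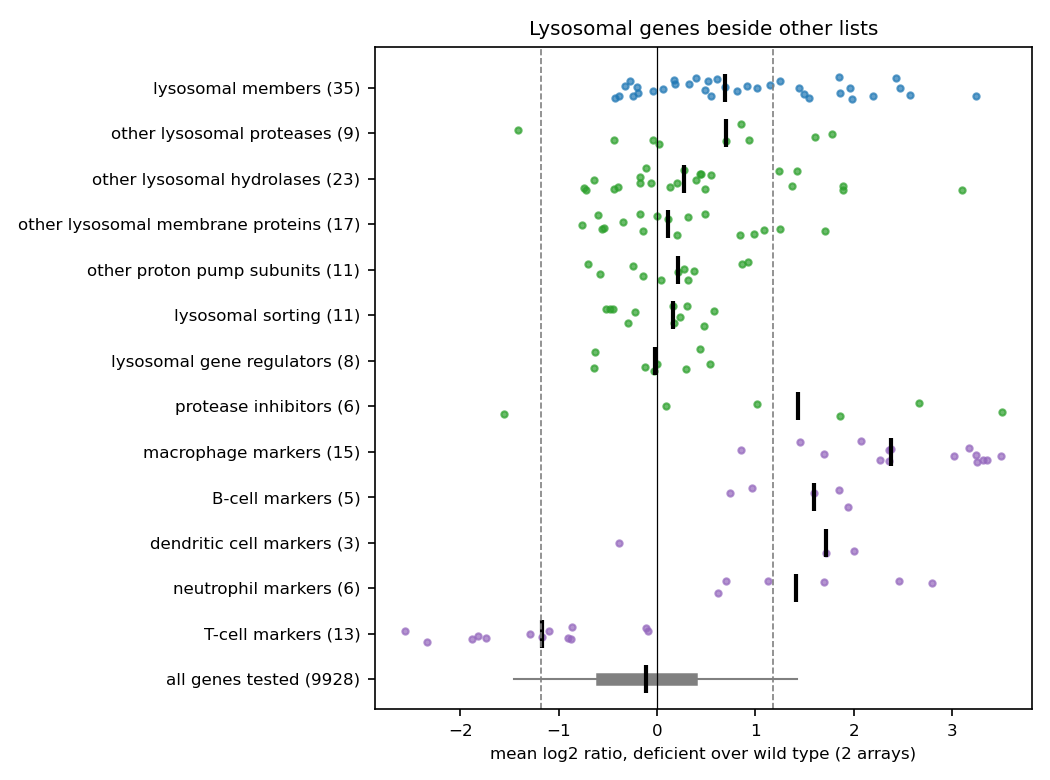
Mean log2 ratio over both arrays, deficient over wild type, of each measured gene (points) in the lysosomal members, 7 other lysosomal lists and 5 lists of cell type markers, with the number measured in brackets and the median as a black bar. For all genes tested, the thick bar spans the quartiles and the thin line the central 95%; dashed lines mark 1.18 in either direction, and the medians run from -1.17 for T-cell markers to 2.38 for macrophage markers.

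The promoters of these genes show which of them carry the E-box that the lysosomal regulator TFEB and its relatives bind. Such genes share a site known as the CLEAR element, a palindrome built around CACGTG. RefSeq promoters (assembly GRCm38.p6, 250 bases before to 50 after the gene start) were found for 32 of the 37 genes, and for none of Ctsb, Ctsh, Npc1, Asah1 and Atp6v1b2. Both strands were searched for CACGTG, for TCACGTGA, which contains it, and for the CLEAR palindrome of 10 bases, which contains both. All read the same on either strand. CACGTG was found at 10 of 32 genes (31.2%), beside 8.09% of all 27025 genes with a promoter and 12.5% of the 7107 of them that were measured. TCACGTGA was found at 6 of 32 genes (18.8%), beside 1.12% of all genes and 2.43% of those measured. An exact match to the CLEAR palindrome was found at 0 of 32 genes, beside 0.370% of all genes and 0.858% of those measured. Such shares amount to few or none of 32 genes. A match is a description of the letters and shows neither binding nor its absence.

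The windows of 30 bases that hold TCACGTGA are shown because these genes had the longest match found, and they include both a risen gene and genes that did not pass. Capitals mark the motif, and each is read 5′ to 3′ on the strand of the gene.
Ctsd: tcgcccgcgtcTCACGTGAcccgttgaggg
Ctsa: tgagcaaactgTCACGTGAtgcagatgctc
Mcoln1: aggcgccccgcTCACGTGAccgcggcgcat
Atp6v0d1: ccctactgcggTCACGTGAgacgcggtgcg
Atp6v1a: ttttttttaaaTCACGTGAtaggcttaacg
Gla: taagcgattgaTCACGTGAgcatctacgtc
In GRCm38.p6 the windows lie at chr7:142387908-142387937 (minus strand) for Ctsd, chr2:164833749-164833778 (plus) for Ctsa, chr8:3500462-3500491 (plus) for Mcoln1, chr8:105566050-105566079 (minus) for Atp6v0d1, chr16:44139373-44139402 (minus) for Atp6v1a and chrX:134601215-134601244 (minus) for Gla. Ctsa and Gla each hold a further TCACGTGA in the same promoter. Of these 6 genes, Ctsd rose (1.54), Ctsa (0.55), Atp6v0d1 (0.06), Atp6v1a (-0.19) and Mcoln1 (-0.39) did not pass, and Gla was too dim to be measured.

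Of the 10 genes with CACGTG, 3 rose, namely Ctsd, Lgmn and Lamp1. The promoter of Lamp1 held 4 copies within the 80 bases before its start (chr8:13159081-13159160, plus strand, GRCm38.p6), and that of Lgmn 1 copy (chr12:102439124-102439153, minus strand). Both are shown with each copy in capitals, as the genes with the motif that rose beside Ctsd.
Lamp1: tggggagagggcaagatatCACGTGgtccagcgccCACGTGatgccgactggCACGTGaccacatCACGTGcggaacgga
Lgmn: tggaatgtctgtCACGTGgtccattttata
The other 8 risen genes with a promoter in the table, namely Ctss, Ctsz, Man2b1, Psap, Gm2a, Ppt1, Creg1 and Cd68, held no CACGTG in this window.

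The calls were followed under 12 other settings of the processing. The deposited table repeats the ratios of the scanner's program, so counts out of 12 hold that result under both names. The log2 ratio of each of the 13 risen genes stayed above 0 in all 12. Ctsb and Creg1 passed in 11, Lgmn in 8, and the other 10 in 5 to 7. Ctsb was lowest with the mean of its probes (1.81), and Creg1 under median centring (1.75). The median of the lysosomal genes measured in a setting, less that of all genes tested in it, ran from 0.57 without the filter on dim probes (over all 37) to 1.01 with the ratios of the scanner's program. The medians by role kept their sign in these 12 settings except for the aspartic and serine proteases (-0.32 under median centring) and the proton pump (-0.16 with the program's ratios and the deposited table, -0.02 under median centring and -0.06 without the filter).

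**Figure D5:**
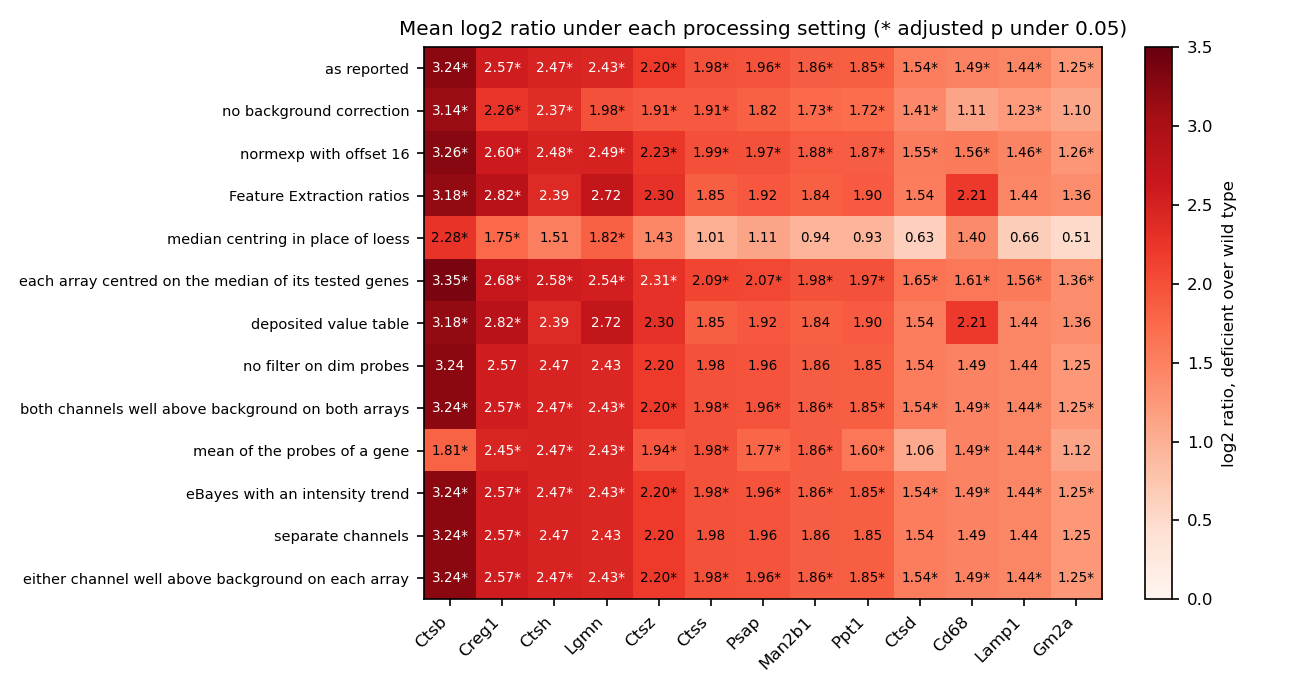
Mean log2 ratio, deficient over wild type, of the 13 lysosomal genes called higher (columns) as reported and under 12 other settings (rows); colour follows the value and stars mark an adjusted p under 0.05. Ctsb runs from 1.81 to 3.35 and Gm2a from 0.51 to 1.36, and no value is below 0.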

How the data were processed

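RNA of Bcl11b-deficient (Cy5) and wild-type (Cy3) CD8+ T cells was hybridised together on 2 Agilent arrays, each of 45018 spots with 41174 gene probes, after linear amplification per the labels. Spot intensity in the scanner files (mean signal and median local background) comes, per the file headers, from Agilent Feature Extraction 9.5.3.1. Its red-over-green log10 ratio was also deposited, made after the program's background surface and dye normalization. The deposited value table repeats that log10 ratio to within 0.00500, with column medians of 0.

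Here, background was corrected with normexp (offset 50) and log2 ratios normalized by loess within arrays, control spots at weight 0, in limma 3.58.1 (R 4.3.3). Outlier gene spots (255 and 195) were left out and spots of a probe averaged. Of 12619 probes kept, the brightest stood for its gene. Ratios were tested against 0 with lmFit and eBayes (two-sided, adjusted p threshold 0.05). With 1 residual degree of freedom and infinite prior degrees of freedom, every gene had the prior variance of 0.350. The number of arrays limits the precision. Probes were named by accession (24375), symbol or synonym (8727) or the array (8072). Coordinates of probes were taken as deposited (build NCBI36), and exons were not assigned.

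The rule on names allowed all 37 genes, up to 4 called genes with the smallest adjusted p from each other list, defining markers not measured, and Bcl11b. The genes and lists were chosen with earlier results of these data known. Alternatives changed the background correction, normalization, filter, probe rule and variance model, used the deposited table, or left out a replicate; 1 looser reading of the filter was added after seeing the data. The slide could not be tested as a batch, since both arrays share it. Some genes of these lists are not reported here by name.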

Additional observations from a re-analysis of the deposited data

How the results depend on the processing

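Called genes moved by more than 1.5 times in several settings. With the ratios of Feature Extraction, and with the deposited table that repeats them, 2 lysosomal genes rose, and 56 genes in all were higher and 76 lower, against 364 and 593 as reported. Median centring in place of loess gave 3 lysosomal genes, with 69 higher and 348 lower. Separate channels gave 2, with 26 and 1 (15 lysosomal genes and 2005 genes in all at an unadjusted p under 0.05). Without the filter on dim probes limma called 0 lysosomal genes, and 0 and 0 genes in all (17 and 5117 at an unadjusted p under 0.05). Without background correction 189 genes were lower, and with both channels above background 552 were higher and 216 lower. The cause of these moves was not tested. Lower genes made up 62.0% of calls as reported, 83.5% under median centring, 39.2% without background correction, 51.0% with each array centred on its genes, 28.1% with both channels above background and 3.70% with separate channels. Median centring moved the median of all genes to -0.41, from -0.12 as reported, the Feature Extraction ratios to -0.24, and the filter on both channels to 0.06. No lysosomal gene was called lower in any of these settings.

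The median of the lysosomal genes was 0.50 to 1.26 when either replicate was left out. Under the other alternatives signs turned at genes that did not pass: under median centring Ctsa (-0.32), Tpp1 (-0.41), Neu1 (-0.44), Npc2 (-0.55), Laptm5 (-0.56) and Atp6v0d1 (-0.24); with the Feature Extraction ratios and the deposited table Laptm5 (-0.02) and Atp6v0d1 (-0.16); without background correction Glb1 (0.05), Lipa (0.04) and Cd63 (0.02); with centring on the genes Glb1 (0.07); and with the mean of the probes Grn (0.86). The reported test is itself paired, since it rests on the ratio within each array, and the separate channels above are the fit beside it. A dim signal limits Gla, Atp6v1b2, Lipa, Npc1, Cd63, Atp6v1a and Atp6v0c.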
